A study of Mus musculus with 18 samples.

Results

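The genes described here are the Wnt ligands, their Frizzled receptors and co-receptors, the secreted antagonists, and the core of the intracellular pathway in 3T3-L1 cells, a mouse embryonic fibroblast line that turns into fat cells under hormones. They were taken by name: every listed gene named Wnt, Fzd, Sfrp or Dkk followed by a number, plus Lrp5, Lrp6, Ror1, Ror2, Wif1, Porcn, Wls, Ctnnb1, Apc, Axin1, Axin2, Gsk3b, Tcf7, Tcf7l1, Tcf7l2 and Lef1. This gave 54 of the 25209 listed genes, 1 of them, Fzd10os, an antisense RNA that the name rule caught. Of the 54, 25 reached 1 TPM, a relative abundance corrected for transcript length, in at least 3 libraries and entered the tests.

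Polyadenylated RNA was sequenced from 18 libraries, 3 in each of 6 groups labelled Control, MCE1, MCE2, Day4, Day6 and Day8. Cells 2 days past confluence received 10 µg/mL insulin, 0.25 µM dexamethasone (a glucocorticoid) and 0.5 mM IBMX (a phosphodiesterase inhibitor that raises cyclic AMP) for 48 h, and then 5 µg/mL insulin. The labels place Day4, Day6 and Day8 at 4, 6 and 8 days after the stimuli, and give no hour for MCE1 and MCE2, whose name stands for mitotic clonal expansion, the early round of division. They give no treatment for Control beyond its name. All groups come from the same clonal line. Nothing in the labels says that replicates were separate cultures, so each p-value sets a difference against a spread between libraries that may be technical.

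Wnt proteins are secreted lipid-modified signals. In the canonical branch they bind a Frizzled receptor together with Lrp5 or Lrp6, which stops a destruction complex of Axin, Apc and Gsk3b from removing β-catenin, and β-catenin then works with TCF/LEF factors in the nucleus. Canonical Wnt signalling is known as a brake on fat cell formation, while Wnt5a and the Ror receptors are best known for β-catenin-independent signalling.

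Fat cell markers were high in the differentiated stages. Among 10 fat cell markers, Fabp4, Lpl and Adipoq were the most abundant, Adipoq, Plin1, Lep, Retn and Slc2a4 were listed at 0 in all 3 Control libraries, and the summed level was 158 to 173 TPM in Control, 672 to 757 at MCE1, 3619 to 3954 at MCE2, 18484 to 19446 at Day4, 31314 to 33278 at Day6 and 26859 to 29706 at Day8. At Day8 against Day6, 1 of the 10 was called higher and 3 lower, where 10.1% of all tested genes were called higher and 11.6% lower. The 6 markers of dividing cells, led by Pcna and Top2a, summed to 1330 to 1414 TPM in Control and 2023 to 2129 TPM at MCE1. The sum was 774 to 865 TPM at MCE2, 292 to 305 at Day4, 309 to 323 at Day6 and 201 to 210 at Day8. At MCE1, 4 of the 6 were called higher than Control and 0 lower (backgrounds 22.0% and 29.4%). At MCE2, 0 were called higher and 5 lower (backgrounds 23.4% and 39.1%). The 8 preadipocyte or fibroblast markers, led by Vim, Col1a1 and Thy1, summed to 7202 to 7375 TPM in Control and to 4106 to 6148 TPM over the later stages, below Control in every library. The single markers split: of the 7 tested, 2 were called higher and 4 lower than Control at each of MCE1, Day6 and Day8. The counts were 1 and 4 at MCE2, and 1 and 5 at Day4. Over all tested genes, 22.0% to 31.7% were called higher and 29.4% to 39.7% lower in these comparisons. The 6 macrophage markers summed to 1.66 to 7.74 TPM, with Ptprc, Adgre1 and Itgam listed at 0 throughout, and the 5 endothelial markers summed to at most 1.72 TPM. The 5 osteoblast markers summed to 13.0 to 14.5 TPM at MCE1 and to 3.16 to 9.17 TPM elsewhere. The skeletal muscle markers Myod1, Myog and Ckm were listed at 0, while Des stood at 37.1 to 44.7 TPM at Day8, against 2.65 to 3.82 TPM in Control. In bulk RNA, fewer cells of a type and less RNA per cell cannot be told apart. The fat cell, division, fibroblast, osteoblast and Des levels differed between the same groups as the Wnt genes, and their part in those results was not tested.

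The widest changes among the members were those of Fzd4, Lrp5, Sfrp2, Porcn and Tcf7l1. Fzd4, Lrp5, Lrp6, Fzd5, Porcn and Tcf7l1 were called higher than Control at all 5 later stages, and Sfrp2, Fzd2 and Ctnnb1 were called lower at all 5. Gsk3b, Lef1, Wnt4, Wnt5a and Wnt6 were called higher at some stages and lower at others, and Fzd8 was called at none. These 5 comparisons share the Control libraries. Called means an adjusted p below 0.05 in limma on log2(TPM + 1), a scale that understates the change of low genes.

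Against Control, the members were called at shares near or above those of all tested genes. At MCE1, 15 of the 25 (60.0%) were called against Control, where 51.4% of the 12695 tested genes were. Of these, 9 were higher and 6 lower, against backgrounds of 22.0% higher and 29.4% lower. At MCE2 the count was 17 against a background of 62.5%, with 8 higher (background 23.4%) and 9 lower (39.1%). At Day4 it was 18 against 69.0%, with 8 higher (29.7%) and 10 lower (39.3%). At Day6 it was 20 against 69.7%, with 9 higher (30.2%) and 11 lower (39.4%). At Day8 it was 22 (88.0%) against 71.4%, with 9 higher (31.7%) and 13 lower (39.7%). The lower counts at MCE1, MCE2 and Day8 include Dkk3, which passed the filter mainly through its Control libraries. Between neighbouring stages, 14 members were called from MCE1 to MCE2 (background 42.8%) and 15 from MCE2 to Day4 (51.6%). The counts were 9 from Day4 to Day6 (25.7%) and 4 from Day6 to Day8, a share of 16.0% against 21.7%. An F test over the 6 groups called 23 of the 25, against 87.6% of all genes. It did not call Fzd8 (adjusted p = 0.121) or Ror2 (adjusted p = 0.0993). The median log2 fold change against Control was -0.42 for the members and -0.11 for all tested genes at Day8, and -0.06 for both at MCE1. Rescaling each library by the median ratio to a common profile raised the log2 fold changes against Control by 0.11 to 0.19, and the calls that this ended are named beside their genes.

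**Figure D1:**
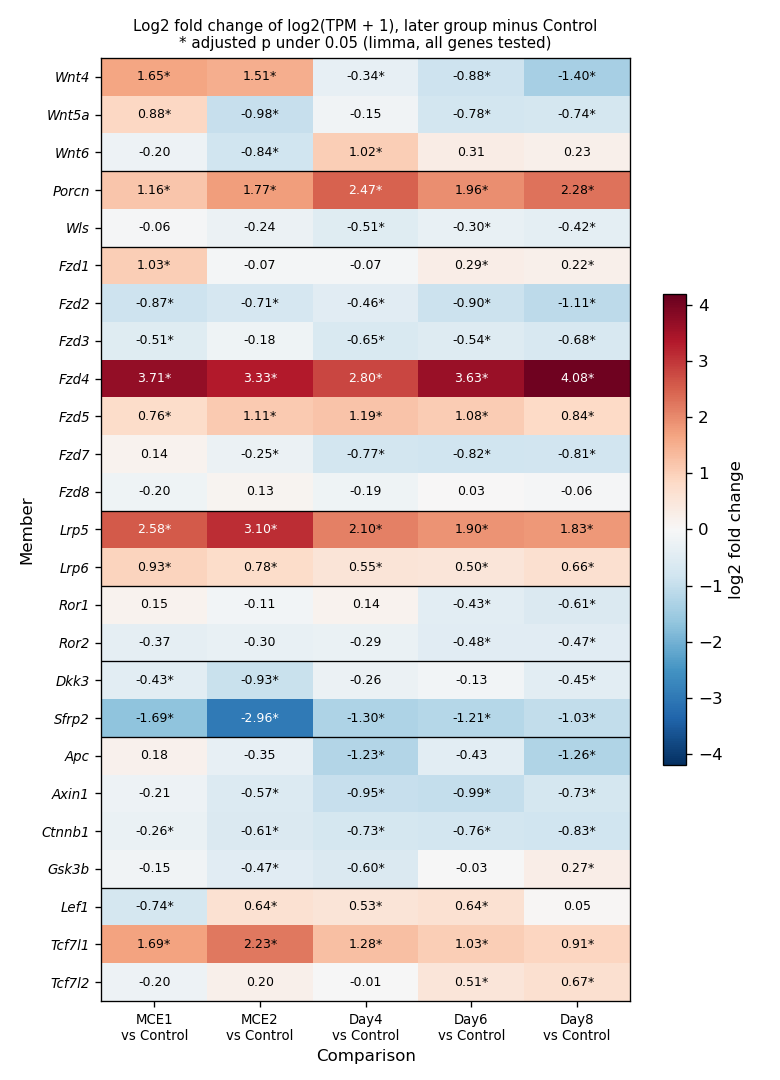
Colour shows the log2 fold change on the log2(TPM + 1) scale of each of the 25 members that entered the tests (rows) at MCE1, MCE2, Day4, Day6 and Day8 against Control (columns), and an asterisk marks an adjusted p under 0.05. Dkk3 passed the filter mainly through its Control libraries, so its asterisks are not read as tests. Fzd4 (2.80 to 4.08) and Lrp5 (1.83 to 3.10) hold the strongest rises, and Sfrp2 (-2.96 to -1.03) the strongest falls.

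Only 3 of the 19 Wnt ligands entered the tests, and each followed its own course. Wnt5a, the main β-catenin-independent ligand, was the most abundant ligand in Control. It stood at 15.1, 14.4 and 14.6 TPM in Control, 30.5, 29.3 and 24.1 at MCE1, 6.46, 7.87 and 6.54 at MCE2, 14.1, 13.2 and 12.3 at Day4, 6.58, 10.1 and 8.04 at Day6, and 9.27, 8.87 and 7.26 at Day8. All 3 MCE1 libraries lay above all others, and all 3 libraries of MCE2, Day4, Day6 and Day8 lay below every Control library. The log2 fold change was 0.88 ± 0.13 (SE, adjusted p = 4.32e-05) at MCE1 and -0.98 ± 0.13 (adjusted p = 8.95e-06) at MCE2 against Control, and -1.86 ± 0.13 (adjusted p = 1.61e-08) at MCE2 against MCE1. Wnt5a rose at Day4 over MCE2 by 0.84 ± 0.13 (adjusted p = 7.71e-05), at which point it missed the threshold against Control (-0.15 ± 0.13, adjusted p = 0.349). At Day8 it fell by 0.74 ± 0.13 against Control (adjusted p = 0.000134).

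Wnt4, a ligand that can act with or without β-catenin depending on the tissue, was high at both MCE stages and low afterwards. It had 7.77, 7.23 and 8.64 TPM in Control, 27.2, 25.6 and 27.8 at MCE1, 26.2, 23.6 and 23.3 at MCE2, 5.01, 6.91 and 6.23 at Day4, 4.26, 3.39 and 3.86 at Day6, and 2.96, 2.51 and 1.72 at Day8. The MCE1 and MCE2 libraries were well separated from the rest, and the Day4, Day6 and Day8 libraries all lay below Control. Wnt4 rose by 1.65 ± 0.14 at MCE1 (adjusted p = 3.87e-08) and by 1.51 ± 0.14 at MCE2 (adjusted p = 7.30e-08), and fell by 1.40 ± 0.14 at Day8 (adjusted p = 1.22e-07). The step from MCE2 to Day4 was -1.85 ± 0.14 (adjusted p = 1.71e-08). Its small fall at Day4 against Control (-0.34 ± 0.14, adjusted p = 0.0363) was lost under both rescalings (-0.21 with the median ratio, -0.23 with quantile normalization), with a pseudocount of 0.1 (-0.38), and without Control replicate 1 (-0.35) or 3 (-0.28) or Day4 replicate 1 (-0.23) or 3 (-0.36). Fitting only the Control and Day4 libraries ended this call too (adjusted p = 0.0581). The last step, from Day6 to Day8 (-0.52 ± 0.14, adjusted p = 0.0120), was lost when only the libraries of these stages were fitted and without Day6 replicate 1 (-0.46) or Day8 replicate 3 (-0.37).

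Wnt6, a canonical ligand reported to hold back fat cell formation in mouse cells, peaked at Day4. It was listed at 3.43, 4.31 and 5.45 TPM in Control, 3.51, 3.42 and 3.98 at MCE1, 1.68, 1.62 and 2.80 at MCE2, 10.2, 10.1 and 9.12 at Day4, 5.47, 5.83 and 5.50 at Day6, and 7.68, 4.13 and 4.44 at Day8. The Day4 libraries stood above all others, the MCE2 libraries below all others, and Day8 overlapped Control. Wnt6 fell by 0.84 ± 0.19 at MCE2 (adjusted p = 0.00126) and rose by 1.02 ± 0.19 at Day4 (adjusted p = 0.000197) against Control, and rose by 1.85 ± 0.19 at Day4 over MCE2 (adjusted p = 7.97e-07). Its fall from MCE1 to MCE2 (-0.63 ± 0.19, adjusted p = 0.0140) was lost without MCE1 replicate 3 (-0.58) or MCE2 replicate 1 (-0.55) or 2 (-0.54).

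The makeup of the ligand pool differed between stages. The summed TPM of the 19 Wnt genes averaged 28.7 ± 1.55 in Control, 59.5 ± 2.36 at MCE1, 34.3 ± 1.12 at MCE2, 31.2 ± 1.70 at Day4, 19.0 ± 1.54 at Day6 and 17.8 ± 2.82 at Day8 (SD, n = 3 each). Wnt5a made up 51.3% of the sum in Control, Wnt4 made up 71.0% at MCE2, and Wnt6 reached 31.4% at Day4. At Day8 the shares were 47.8% for Wnt5a, 29.9% for Wnt6 and 13.3% for Wnt4, against 51.3%, 15.2% and 27.5% in Control.

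The other 16 Wnt genes stayed low. Wnt1, Wnt2, Wnt3, Wnt3a, Wnt7b, Wnt9b and Wnt11 were listed at 0 in all 18 libraries. Wnt2b (0.33 to 0.90 TPM) and Wnt9a (0.11 to 0.90 TPM) were listed above 0 in every library but never reached 1 TPM. Wnt10b, the ligand best known for holding 3T3-L1 cells in the preadipocyte state, was listed at 0 in 14 libraries and reached at most 0.35 TPM, and Wnt10a reached at most 0.45 TPM. Wnt5b, which is close to Wnt5a in sequence, reached at most 0.74 TPM. Wnt7a, Wnt8a, Wnt8b and Wnt16 were the remaining genes listed above 0 in some library.

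Both secretion genes were expressed, and they moved apart. Porcn, the acyltransferase that attaches the lipid to Wnt proteins, had 3.92, 4.90 and 3.53 TPM in Control, 12.5, 10.8 and 8.06 at MCE1, 15.2, 16.5 and 17.5 at MCE2, 25.0, 29.3 and 27.6 at Day4, 17.2, 19.9 and 19.6 at Day6, and 19.1, 27.1 and 25.4 at Day8. No later library overlapped Control. Against Control, Porcn changed on the log2 scale by 1.16 ± 0.15 at MCE1 (adjusted p = 8.81e-06), 2.47 ± 0.15 at Day4 (adjusted p = 5.42e-10) and 2.28 ± 0.15 at Day8 (adjusted p = 1.18e-09). The fall from Day4 to Day6 (-0.51 ± 0.15, adjusted p = 0.0216) was lost without Day4 replicate 2 (-0.46) or 3 (-0.50) or Day6 replicate 1 (-0.45).

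Wls, the carrier that takes lipid-modified Wnt proteins to the cell surface, was far more abundant and moved less. Its values were 99.1, 107 and 109 TPM in Control, 103, 95.7 and 104 at MCE1, 82.2, 95.5 and 89.0 at MCE2, 59.2, 82.4 and 81.9 at Day4, 83.8, 84.3 and 86.6 at Day6, and 73.6, 89.0 and 72.7 at Day8. Every library of the last 4 stages lay below every Control library. Wls fell by 0.51 ± 0.11 at Day4 (adjusted p = 0.000608) and by 0.42 ± 0.11 at Day8 (adjusted p = 0.00243). At Day6 the call (-0.30 ± 0.11, adjusted p = 0.0200) was lost with median-ratio scaling (-0.16) and without Control replicate 2 (-0.29) or 3 (-0.28) or Day6 replicate 1 (-0.29).

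**Figure D2:**
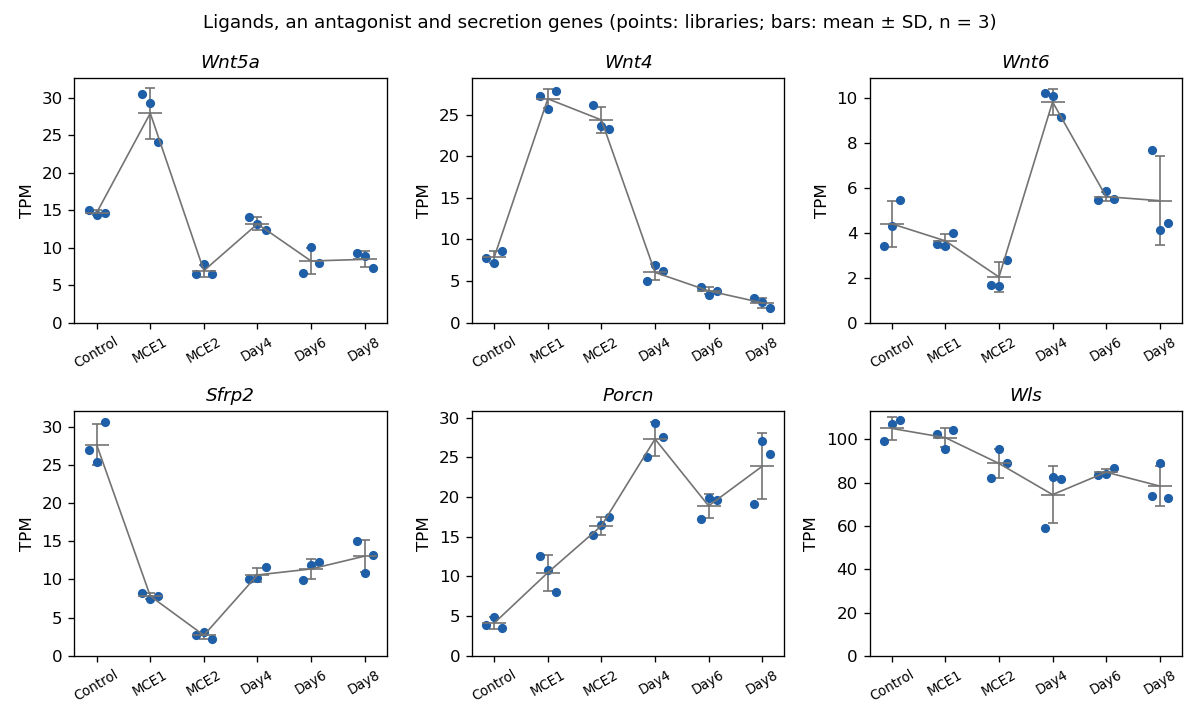
TPM of the 3 tested Wnt ligands (Wnt5a, Wnt4, Wnt6), the antagonist Sfrp2 and the secretion genes Porcn and Wls in each library (points) by stage in order from Control to Day8, with bars for the mean ± SD (n = 3). Wnt5a peaks at MCE1 (28.0 TPM), Wnt4 is high at MCE1 and MCE2 (26.9 and 24.3 TPM), Wnt6 peaks at Day4 (9.80 TPM), and Sfrp2 is lowest at MCE2 (2.68 TPM).

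Of the 10 Frizzled genes, 7 entered the tests: Fzd1, Fzd2, Fzd3, Fzd4, Fzd5, Fzd7 and Fzd8, all encoding receptors that bind Wnt proteins through a cysteine-rich domain. Fzd6 and the antisense Fzd10os were listed at 0 throughout, and Fzd9 and Fzd10 reached at most 0.24 and 0.42 TPM.

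Fzd4, which also serves as the receptor for the non-Wnt ligand Norrin, showed the strongest rise of any member. It had 1.47, 0.950 and 1.11 TPM in Control, 28.7, 26.6 and 26.4 at MCE1, 20.3, 20.1 and 22.1 at MCE2, 15.5, 10.7 and 16.6 at Day4, 23.6, 30.7 and 23.4 at Day6, and 37.0, 41.2 and 29.6 at Day8. Every later library stood above all 3 Control libraries. The log2 fold change against Control was 3.71 ± 0.16 at MCE1 (adjusted p = 1.38e-11), 2.80 ± 0.16 at Day4 (adjusted p = 1.69e-10) and 4.08 ± 0.16 at Day8 (adjusted p = 1.07e-12). Within this course Fzd4 fell at Day4 against MCE2 (-0.54 ± 0.16, adjusted p = 0.00921), a call lost without Day4 replicate 2 (-0.35), and rose at Day6 over Day4 (0.83 ± 0.16, adjusted p = 0.000948). The further step to Day8 (0.46 ± 0.16, adjusted p = 0.0491), where the libraries of Day8 and Day6 overlapped, was lost without Day6 replicate 1 (0.40) or 3 (0.39) or Day8 replicate 1 (0.43) or 2 (0.35), among others.

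Fzd2 took the opposite direction. It stood at 65.7, 67.2 and 64.9 TPM in Control, 35.8, 35.8 and 35.3 at MCE1, 41.0, 40.9 and 37.7 at MCE2, 49.5, 49.5 and 44.2 at Day4, 33.4, 36.7 and 34.8 at Day6, and 33.6, 29.8 and 27.2 at Day8. All later libraries lay below Control, and the Day4 libraries lay above those of the other later stages. Fzd2 fell by 0.87 ± 0.07 at MCE1 (adjusted p = 4.35e-08), fell by 0.46 ± 0.07 at Day4 (adjusted p = 3.18e-05) and fell by 1.11 ± 0.07 at Day8 (adjusted p = 8.57e-10). Its call at Day8 against Day6 (-0.21 ± 0.07, adjusted p = 0.0492) was lost without any of Day6 replicates 1, 2 and 3 (-0.24, -0.17 and -0.21) or Day8 replicates 2 and 3 (-0.20 and -0.14), or without Control replicate 1 (-0.21). A pseudocount of 0.1 (-0.22), no filter, array weights and a fit of only the libraries compared (adjusted p = 0.247) each ended it too.

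Fzd1 had the highest mean of the Frizzled genes at every stage after Control and peaked at MCE1. Its values were 58.6, 67.6 and 70.4 TPM in Control, 142, 134 and 128 at MCE1, 60.1, 61.5 and 64.5 at MCE2, 64.1, 58.8 and 63.9 at Day4, 74.7, 86.7 and 79.3 at Day6, and 90.1, 70.9 and 69.8 at Day8. The MCE1 libraries stood apart from all others, and those of MCE2 and Day4 fell within the Control range. The rise at MCE1 was 1.03 ± 0.09 (adjusted p = 1.20e-07), and the fall from there to MCE2 was -1.10 ± 0.09 (adjusted p = 9.72e-08). Later calls against Control were small: 0.29 ± 0.09 at Day6 (adjusted p = 0.0111), lost without Control replicate 1 (0.21) or Day6 replicate 2 (0.23), and 0.22 ± 0.09 at Day8 (adjusted p = 0.0423), lost without Control replicate 1 (0.15) or 2 (0.25) or Day8 replicate 1 (0.10), among others.

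Fzd7, a receptor often linked to canonical signalling in stem cells, declined in the later stages. It had 23.7, 23.9 and 25.4 TPM in Control, 27.1, 28.7 and 25.0 at MCE1, 19.9, 20.0 and 20.8 at MCE2, 13.5, 13.2 and 14.9 at Day4, 11.9, 14.4 and 13.7 at Day6, and 13.0, 14.01 and 13.2 at Day8. The Day4, Day6 and Day8 libraries all lay below those of the first 3 groups. The log2 fold change against Control was -0.77 ± 0.08 at Day4 (adjusted p = 3.13e-07) and -0.81 ± 0.08 at Day8 (adjusted p = 1.41e-07). At MCE2 the call (-0.25 ± 0.08, adjusted p = 0.0118) was lost under both rescalings (-0.06 and -0.04), which also turned the MCE1 value of 0.14 into a call (0.26 and 0.22).

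The 3 lower Frizzled genes ranged from 0.853 to 12.7 TPM. Fzd5 averaged 6.65 ± 1.91 TPM at Day8, against 3.20 ± 0.641 TPM in Control, and was called higher at all 5 stages with log2 fold changes of 0.76 to 1.19, the smallest of which, at MCE1, was lost without Control replicate 3 (0.64). Fzd3 averaged 1.15 ± 0.226 TPM at Day8, against 2.43 ± 0.158 TPM in Control, and was called lower at MCE1, Day4, Day6 and Day8 (-0.68 to -0.51), the MCE1 call being lost with quantile normalization (-0.26). Fzd8 averaged between 5.75 and 7.46 TPM in every group and missed the threshold against Control at all stages (-0.20 to 0.13). At MCE2 it became a call under both rescalings (0.31 and 0.40).

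**Figure D3:**
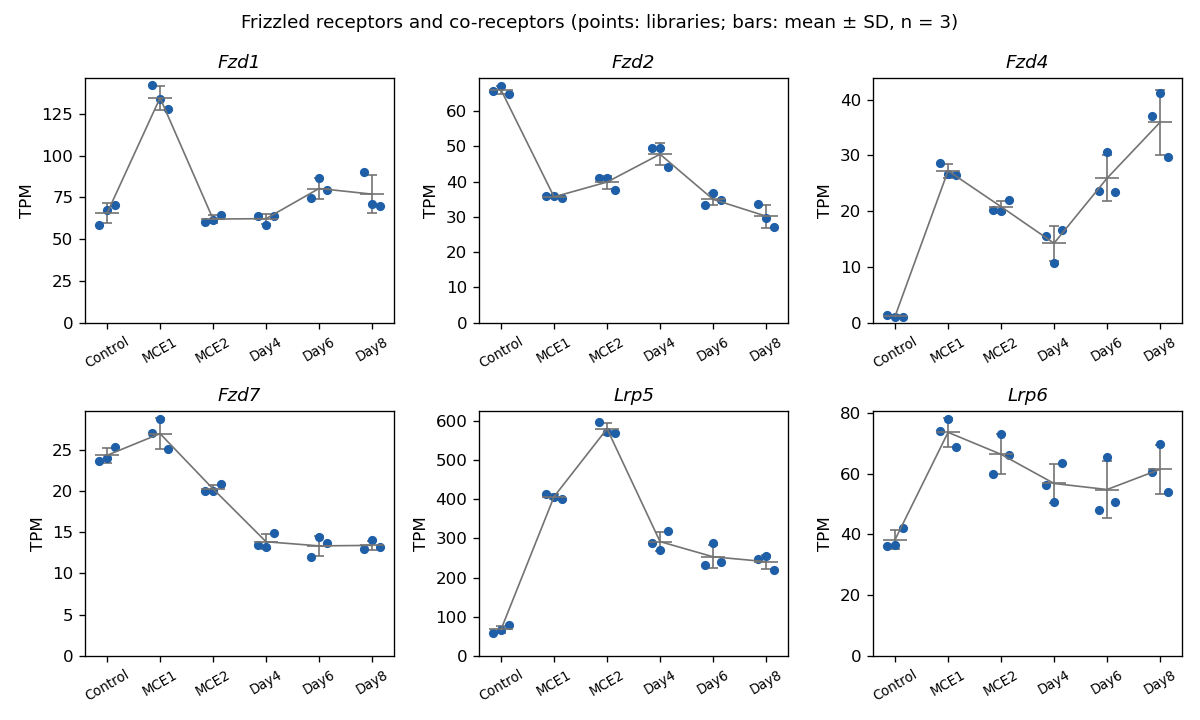
TPM of Fzd1, Fzd2, Fzd4, Fzd7, Lrp5 and Lrp6 in each library (points) by stage in order from Control to Day8, with bars for the mean ± SD (n = 3). Fzd4 leaves a mean of 1.18 TPM in Control for 14.3 to 35.9 TPM at later stages, and Lrp5 reaches 581 TPM at MCE2.

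The receptor pool was largest at MCE1, and its makeup at Day8 differed from that in Control. The summed TPM of the Frizzled genes averaged 169 ± 6.43 in Control, 238 ± 9.88 at MCE1, 161 ± 1.12 at MCE2, 154 ± 8.35 at Day4, 171 ± 12.01 at Day6 and 171 ± 17.1 at Day8 (SD, n = 3 each). Fzd4 held 21.0% ± 2.43 of that sum at Day8, against 0.698% ± 0.185 in Control. Fzd2 held 17.6% ± 0.398 at Day8, against 39.0% ± 1.63 in Control. Fzd1 held 44.9% ± 3.66 at Day8, against 38.6% ± 2.21 in Control, and reached 56.6% at MCE1. Fzd7 held 7.89% ± 0.847 at Day8, against 14.4% ± 0.392 in Control.

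**Figure D4:**
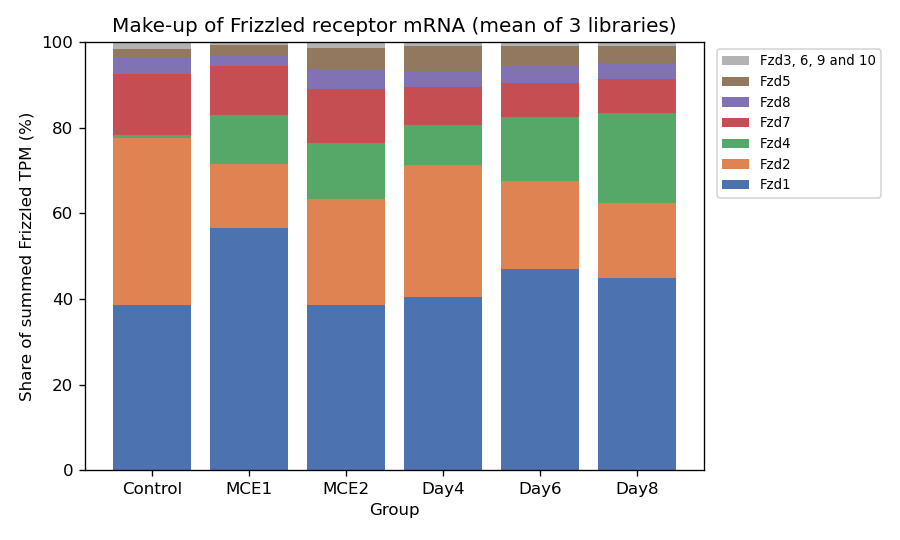
Mean share (percent) of the summed Frizzled TPM held by each Frizzled gene at each stage in order from Control to Day8 (n = 3 libraries a stage). The Fzd4 share is 0.698% in Control and 21.0% at Day8, while the Fzd2 share is 39.0% in Control and 17.6% at Day8.

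Lrp5 and Lrp6, the single-pass co-receptors that canonical signalling requires, were both called higher at all 5 stages. Lrp5 had 58.4, 66.6 and 77.5 TPM in Control, 413, 406 and 402 at MCE1, 598, 573 and 570.5 at MCE2, 287, 270.0 and 319 at Day4, 233, 288 and 239 at Day6, and 247, 255 and 220.4 at Day8. All later libraries stood above Control, with the MCE2 libraries above all others. The log2 fold change was 2.58 ± 0.10 at MCE1 (adjusted p = 3.31e-12), 3.10 ± 0.10 at MCE2 (adjusted p = 1.84e-13) and 1.83 ± 0.10 at Day8 (adjusted p = 5.82e-11). Lrp5 fell from MCE2 to Day4 by 0.99 ± 0.10 (adjusted p = 4.00e-07).

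Lrp6 rose less. Its values were 36.3, 36.5 and 42.0 TPM in Control, 74.0, 78.1 and 68.7 at MCE1, 59.8, 73.0 and 66.3 at MCE2, 56.2, 50.5 and 63.6 at Day4, 48.1, 65.6 and 50.6 at Day6, and 60.4, 69.9 and 53.9 at Day8. No later library overlapped Control, and the MCE1 libraries lay above those of Day4 and Day6. Lrp6 rose on the log2 scale by 0.93 ± 0.12 at MCE1 (adjusted p = 1.06e-05) and 0.66 ± 0.12 at Day8 (adjusted p = 0.000164). The Lrp5 to Lrp6 ratio averaged 1.76 ± 0.130 in Control, 5.54 ± 0.329 at MCE1, 8.82 ± 1.09 at MCE2, 5.16 ± 0.173 at Day4, 4.65 ± 0.244 at Day6 and 3.94 ± 0.252 at Day8 (SD, n = 3 each).

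Ror1 and Ror2, tyrosine kinase-like receptors for Wnt5a, were low in every group. Ror1 stood at 2.44, 2.70 and 2.62 TPM in Control, 3.15, 3.21 and 2.62 at MCE1, 2.41, 2.70 and 1.91 at MCE2, 3.52, 3.08 and 2.32 at Day4, 1.53, 2.22 and 1.31 at Day6, and 1.25, 1.30 and 1.51 at Day8. Only the Day6 and Day8 libraries all lay below Control. Ror1 fell by 0.61 ± 0.15 at Day8 (adjusted p = 0.00157), while its calls at Day6 against Control (-0.43 ± 0.15, adjusted p = 0.0164) and against Day4 (-0.57 ± 0.15, adjusted p = 0.00990) were each lost without 1 library: Day6 replicate 1 (-0.39) or 3 (-0.33) against Control, and Day4 replicate 1 (-0.47) or Day6 replicate 3 (-0.46) against Day4. Median-ratio scaling also removed the Day6 call against Control (-0.33). Fitting only the libraries compared removed the Day6 call against Day4 (adjusted p = 0.0812).

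Ror2 had 1.499, 1.64 and 1.27 TPM in Control, 0.900, 0.938 and 0.88 at MCE1, 1.007, 1.20 and 0.826 at MCE2, 0.994, 1.09 and 0.943 at Day4, 0.734, 0.790 and 0.776 at Day6, and 1.07, 0.286 and 1.13 at Day8. Every later library lay below every Control library. The calls at Day6 (-0.48 ± 0.16, adjusted p = 0.0149) and Day8 (-0.47 ± 0.16, adjusted p = 0.0167) were both lost without Control replicate 2 (-0.43 and -0.42), and the Day8 call also without Day8 replicate 2 (-0.23). Fitting only the Control and Day8 libraries ended the Day8 call as well (adjusted p = 0.0945). The F test over the 6 groups did not call Ror2 (adjusted p = 0.0993).

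Of the 9 secreted antagonists, 2 entered the tests. Sfrp2, a secreted Frizzled-related protein that binds Wnt ligands outside the cell, was lower than in Control at every later stage. It had 27.0, 25.3 and 30.6 TPM in Control, 8.20, 7.39 and 7.87 at MCE1, 2.69, 3.13 and 2.22 at MCE2, 10.0, 10.1 and 11.6 at Day4, 9.95, 11.8 and 12.3 at Day6, and 15.02, 10.9 and 13.2 at Day8. All later libraries lay below Control and those of MCE2 lay lowest. Sfrp2 changed on the log2 scale by -1.69 ± 0.13 at MCE1 (adjusted p = 1.27e-08), -2.96 ± 0.13 at MCE2 (adjusted p = 8.34e-12) and -1.03 ± 0.13 at Day8 (adjusted p = 1.96e-06), and Sfrp2 rose by 1.66 ± 0.13 at Day4 over MCE2 (adjusted p = 2.86e-08).

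Dkk3, the divergent member of the Dickkopf family, only just entered the tests, with at least 1 TPM in 4 libraries, 3 of them the Control libraries. The filter thus favoured a fall against Control, and its fold changes against Control are given as a description with no test. It stood at 1.12, 1.07 and 1.25 TPM in Control, 0.527, 0.732 and 0.542 at MCE1, 0.236, 0 and 0.157 at MCE2, 0.838, 0.811 and 0.741 at Day4, 0.917, 1.18 and 0.823 at Day6, and 0.911, 0.555 and 0.301 at Day8. The MCE2 libraries were the lowest, and Day6 overlapped Control. The log2 fold change against Control was -0.43 at MCE1, -0.93 at MCE2 and -0.45 at Day8, and Dkk3 is among the members counted as lower at these 3 stages. The MCE1 value was -0.19 with quantile normalization and -0.84 with a pseudocount of 0.1, and the Day8 value was -0.96 with that pseudocount and -0.32 without Day8 replicate 3. At MCE1, Dkk3 left the members counted as lower under those 2 settings. The same held without Control replicate 1 (-0.43) or 3 (-0.39) or MCE1 replicate 1 (-0.39) or 3 (-0.40). The other 7 antagonists, Dkk1, Dkk2, Dkk4, Wif1, Sfrp1, Sfrp4 and Sfrp5, did not enter. Dkk1, Dkk4 and Wif1 were listed at 0 in all libraries. Sfrp5, an antagonist abundant in mouse white fat, had 0.85, 0.70 and 0.71 TPM at MCE2 and 1.20, 1.04 and 0.96 TPM at Day4, and was listed at 0 in Control and Day8.

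Promoter windows are shown for the receptor with the strongest rise, the nuclear factor with the strongest rise and the antagonist with the strongest fall, so that their base composition can be compared. Each is the 250 bases before the gene's start in the RefSeq annotation of GRCm38.p6, 5′ to 3′ on the gene's own strand: Fzd4 at chr7:89404116-89404365 (plus strand), Tcf7l1 at chr6:72789046-72789295 (minus strand) and Sfrp2 at chr3:83766071-83766320 (plus strand). Capitals mark the GC box GGGCGG or its reverse complement CCGCCC, the kind of site that Sp1-family factors bind.
Fzd4: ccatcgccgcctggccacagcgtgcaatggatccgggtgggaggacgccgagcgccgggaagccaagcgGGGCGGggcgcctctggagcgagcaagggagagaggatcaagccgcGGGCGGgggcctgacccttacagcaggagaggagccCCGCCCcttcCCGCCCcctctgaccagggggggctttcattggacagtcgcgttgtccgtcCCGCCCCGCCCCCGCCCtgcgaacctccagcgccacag
Tcf7l1: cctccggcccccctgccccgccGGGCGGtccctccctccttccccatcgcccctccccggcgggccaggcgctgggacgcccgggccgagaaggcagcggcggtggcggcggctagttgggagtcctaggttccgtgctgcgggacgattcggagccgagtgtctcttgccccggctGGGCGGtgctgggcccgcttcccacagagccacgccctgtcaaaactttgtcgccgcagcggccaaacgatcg
Sfrp2: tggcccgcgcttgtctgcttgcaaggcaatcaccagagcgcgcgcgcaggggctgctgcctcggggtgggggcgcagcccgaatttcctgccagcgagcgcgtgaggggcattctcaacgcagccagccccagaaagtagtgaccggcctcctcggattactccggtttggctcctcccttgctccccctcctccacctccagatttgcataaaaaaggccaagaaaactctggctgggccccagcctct
The Fzd4 window held 7 such matches, the Tcf7l1 window 2 and the Sfrp2 window 0. G and C made up 72.8% of the letters for Fzd4, 73.6% for Tcf7l1 and 63.6% for Sfrp2, against a median of 52.4% over all 32851 RefSeq windows. A GC box on either strand occurred in 32.7% of all windows and in 34 of the 45 windows that belong to 36 of the 54 members. The TCF/LEF motif CTTTGAT (3.21% of all windows) and the cyclic AMP response element TGACGTCA (1.55%), each searched on both strands, were in none of the 3 windows shown. CTTTGAT was in 2 of the 45 member windows and TGACGTCA in 0.

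Inside the cell, the transcripts of β-catenin and of its destruction complex were mostly lower than in Control. Ctnnb1, which encodes β-catenin, was among the most abundant members, with 446, 456 and 470.1 TPM in Control, 384, 389 and 369 at MCE1, 292, 304 and 305 at MCE2, 273, 263 and 288 at Day4, 255, 284 and 269.6 at Day6, and 256, 264 and 253 at Day8. Every later library lay below Control. Ctnnb1 changed on the log2 scale by -0.26 ± 0.05 at MCE1 (adjusted p = 0.000153), -0.61 ± 0.05 at MCE2 (adjusted p = 9.97e-09) and -0.83 ± 0.05 at Day8 (adjusted p = 1.19e-10). The small step from MCE2 to Day4 (-0.13 ± 0.05, adjusted p = 0.0279) was lost without MCE2 replicate 2 (-0.12) or 3 (-0.12) or Day4 replicate 1 (-0.12) or 2 (-0.10). Fitting only the libraries of these stages ended this call too (adjusted p = 0.0594).

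Axin1, the scaffold of the destruction complex, had 52.6, 47.3 and 54.1 TPM in Control, 46.0, 49.5 and 38.0 at MCE1, 33.0, 35.7 and 33.7 at MCE2, 27.5, 22.7 and 28.1 at Day4, 27.0, 26.8 and 22.5 at Day6, and 31.0, 32.7 and 28.2 at Day8. MCE1 overlapped Control, and the later stages did not. Axin1 fell by 0.57 ± 0.11 at MCE2 (adjusted p = 0.000205), by 0.95 ± 0.11 at Day4 (adjusted p = 7.70e-07) and by 0.73 ± 0.11 at Day8 (adjusted p = 1.44e-05). Its step from MCE1 to MCE2 (-0.37 ± 0.11, adjusted p = 0.0113) was lost without MCE1 replicate 2 (-0.29). Axin2, the inducible paralogue and a standard readout of canonical signalling, was listed at 0 in 13 libraries and reached at most 0.40 TPM.

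Gsk3b, the kinase that marks β-catenin for removal, dipped and recovered. It stood at 41.7, 41.8 and 43.9 TPM in Control, 36.9, 41.0 and 36.5 at MCE1, 26.8, 32.3 and 32.5 at MCE2, 26.8, 26.3 and 29.9 at Day4, 38.1, 49.2 and 38.7 at Day6, and 51.0, 58.6 and 45.5 at Day8. The MCE2 and Day4 libraries lay below all Control libraries and the Day8 libraries above them. Gsk3b fell by 0.47 ± 0.11 at MCE2 (adjusted p = 0.00143) and by 0.60 ± 0.11 at Day4 (adjusted p = 0.000134), and rose by 0.58 ± 0.11 at Day6 over Day4 (adjusted p = 0.000973). The call at Day8 over Control (0.27 ± 0.11, adjusted p = 0.0362) was lost without Control replicate 1 (0.26), 2 (0.26) or 3 (0.29) or Day8 replicate 1 (0.28) or 2 (0.18). That at MCE2 against MCE1 (-0.31 ± 0.11, adjusted p = 0.0291) was lost with quantile normalization (-0.20) and without MCE1 replicate 2 (-0.26) or MCE2 replicate 1 (-0.23).

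Apc, a second scaffold of the complex, varied widely between replicates. It had 11.2, 21.3 and 12.3 TPM in Control, 17.7, 16.8 and 14.997 at MCE1, 10.3, 9.77 and 13.3 at MCE2, 3.53, 6.77 and 7.04 at Day4, 11.4, 9.57 and 10.3 at Day6, and 4.53, 12.1 and 2.67 at Day8. Day4 was the only stage with all libraries below Control, since Day8 replicate 2 lay within the Control range. Apc fell by 1.23 ± 0.36 at Day4 (adjusted p = 0.00658) and by 1.26 ± 0.36 at Day8 (adjusted p = 0.00527). In the files' annotation Apc, Ctnnb1, Gsk3b and Tcf7l1 each overlap another listed gene, and strand use is not stated, so reads shared with it cannot be told apart. Those partners were listed at 0 to 1.24 TPM in Control replicate 2.

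**Figure D5:**
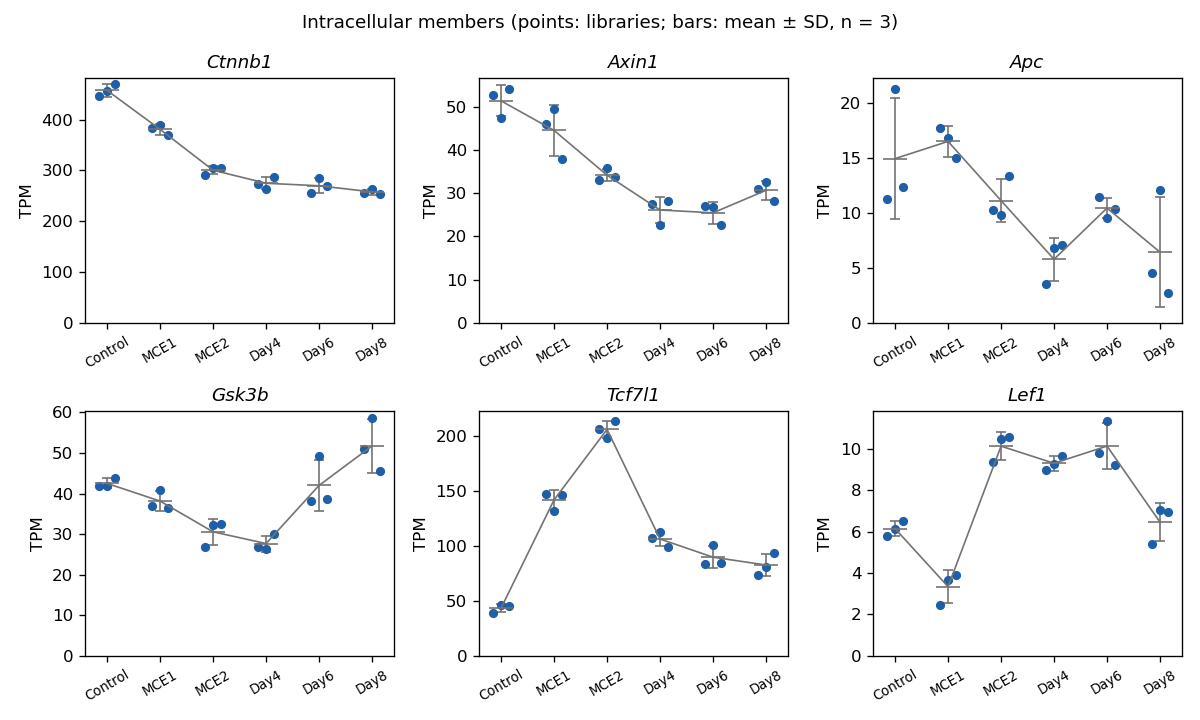
TPM of Ctnnb1, Axin1, Apc, Gsk3b, Tcf7l1 and Lef1 in each library (points) by stage in order from Control to Day8, with bars for the mean ± SD (n = 3). Ctnnb1 declines to 258 TPM at Day8, against 457 TPM in Control, and Tcf7l1 peaks at 206 TPM at MCE2.

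Among the 4 TCF/LEF factors, Tcf7l1 was by far the most abundant. Tcf7l1, known mainly as a repressor of Wnt targets, had 38.9, 46.3 and 45.1 TPM in Control, 148, 132 and 147 at MCE1, 206, 199 and 214 at MCE2, 108, 112 and 99.3 at Day4, 84.0, 101 and 84.2 at Day6, and 73.5, 81.1 and 93.5 at Day8. All later libraries stood above Control, and those of MCE2 stood highest. Tcf7l1 rose on the log2 scale by 1.69 ± 0.09 at MCE1 (adjusted p = 3.67e-10), 2.23 ± 0.09 at MCE2 (adjusted p = 7.65e-12) and 0.91 ± 0.09 at Day8 (adjusted p = 2.79e-07). Its share of the summed TCF/LEF TPM was 80.0% ± 1.12 in Control, 95.2% ± 0.736 at MCE1 and 84.6% ± 3.92 at Day8.

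Lef1, the factor that mostly activates with β-catenin, moved first down and then up. It stood at 5.77, 6.13 and 6.52 TPM in Control, 2.43, 3.68 and 3.90 at MCE1, 9.34, 10.5 and 10.5 at MCE2, 8.96, 9.27 and 9.66 at Day4, 9.81, 11.4 and 9.23 at Day6, and 5.39, 7.02 and 6.95 at Day8. MCE1 lay below Control, the next 3 stages lay above it, and Day8 overlapped it. Lef1 fell by 0.74 ± 0.13 at MCE1 (adjusted p = 0.000224) and rose by 0.64 ± 0.13 at MCE2 (adjusted p = 0.000582) against Control, a step of 1.37 ± 0.13 at MCE2 over MCE1 (adjusted p = 4.99e-07). At Day8 it fell by 0.58 ± 0.13 against Day6 (adjusted p = 0.00557), a call lost when only the libraries of these stages were fitted (adjusted p = 0.0523), and missed the threshold against Control (0.05 ± 0.13, adjusted p = 0.730).

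Tcf7l2 had 4.36, 5.40 and 3.79 TPM in Control, 3.87, 4.16 and 3.28 at MCE1, 5.06, 5.71 and 5.18 at MCE2, 3.72, 5.48 and 4.29 at Day4, 6.98, 6.55 and 6.88 at Day6, and 12.9, 5.46 and 6.32 at Day8. The Day6 and Day8 libraries all lay above Control, and Day8 replicate 1 stood apart from its replicates. The calls at Day8 (0.67 ± 0.22, adjusted p = 0.0121) and Day6 (0.51 ± 0.22, adjusted p = 0.0470) were not firm. The Day8 call was lost without Day8 replicate 1 (0.33) or Control replicate 3 (0.57), and the Day6 call without Control replicate 1 (0.49) or 3 (0.41) or any of Day6 replicates 1, 2 and 3 (0.49, 0.53 and 0.50). Fitting only the libraries compared also ended the Day8 call (adjusted p = 0.0742). The Day6 call was also lost with quantile normalization (0.54), with no filter and with the replicate block. Tcf7, the remaining factor, reached at most 0.72 TPM.

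The rest of the pathway was described with a list of 60 other Wnt pathway genes, of which 40 entered the tests. At Day8, 10 were called higher and 17 lower than Control, near the backgrounds of 31.7% higher and 39.7% lower, with a median log2 fold change of -0.21, against -0.11 for all genes. At MCE1 the counts were 8 higher and 17 lower (backgrounds 22.0% and 29.4%), at MCE2 6 and 16 (23.4% and 39.1%), at Day4 9 and 17 (29.7% and 39.3%), and at Day6 7 and 16 (30.2% and 39.4%). The lower counts include Lgr6, which passed the filter only through its Control libraries. Among those with the strongest change at Day8, Gpc4, a cell surface glypican, averaged 140.2 ± 10.5 TPM at Day8, against 46.8 ± 1.79 TPM in Control (log2 fold change 1.56 ± 0.07, adjusted p = 1.33e-11). Prickle1, a planar polarity protein, averaged 23.9 ± 1.26 TPM at Day8, against 6.77 ± 1.11 TPM in Control (1.69 ± 0.10, adjusted p = 2.77e-10). These were the 2 higher genes of the 6 named.

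The 4 lower genes include a receptor and a Dishevelled protein. Lgr6, a receptor for R-spondins that potentiate Wnt signals, averaged 0.400 ± 0.0820 TPM at Day8, against 10.8 ± 0.830 TPM in Control (log2 fold change -3.08), and was listed at 0 in all 3 MCE2 libraries. It entered the tests only through Control, the group where it was high, so this fold change is given with no test. Daam2, a formin that binds Dishevelled, averaged 9.86 ± 0.493 TPM at Day8, against 54.9 ± 6.93 TPM in Control (-2.36 ± 0.11, adjusted p = 1.19e-11). Vangl1, a planar polarity membrane protein, averaged 12.8 ± 0.276 TPM at Day8, against 32.9 ± 1.40 TPM in Control (-1.29 ± 0.10, adjusted p = 4.21e-09). Dvl2, a Dishevelled protein that relays the signal from Frizzled, averaged 31.7 ± 1.89 TPM at Day8, against 75.8 ± 4.75 TPM in Control (-1.23 ± 0.06, adjusted p = 4.91e-11).

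A list of 25 genes known as β-catenin targets, which includes the members Axin2, Lef1, Tcf7, Tcf7l1 and Dkk1, had 13 in the tests. At Day8, 4 were called higher and 6 lower than Control, near the backgrounds of 31.7% and 39.7%, with a median log2 fold change of -0.26, against -0.11 for all genes. The counts were 4 higher and 6 lower at MCE1 (backgrounds 22.0% and 29.4%), and 5 higher and 6 lower at each of MCE2, Day4 and Day6. The backgrounds there were 23.4% and 39.1% at MCE2, 29.7% and 39.3% at Day4, and 30.2% and 39.4% at Day6. Ccnd1, the cyclin that drives entry into the cell cycle, averaged 30.3 ± 5.59 TPM at Day8, against 579 ± 21.8 TPM in Control (-4.23 ± 0.09, adjusted p = 1.32e-15). Cd44, a hyaluronan receptor, averaged 23.1 ± 2.29 TPM at Day8, against 267 ± 7.82 TPM in Control (-3.48 ± 0.08, adjusted p = 1.21e-15). All 6 dividing cell markers were also called lower at Day8 (background 39.7%, median log2 fold change -2.76), and their part in these falls was not tested.

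The other named targets split in direction. Ccn5, a secreted matricellular protein, averaged 19.9 ± 6.92 TPM at Day8, against 101 ± 1.43 TPM in Control (-2.33 ± 0.17, adjusted p = 3.62e-09). Fosl1, an AP-1 subunit, averaged 37.0 ± 4.71 TPM at Day8, against 97.2 ± 3.70 TPM in Control (-1.38 ± 0.11, adjusted p = 8.08e-09). Myc, a growth-promoting transcription factor, averaged 15.3 ± 1.82 TPM at Day8, against 40.9 ± 2.83 TPM in Control (-1.36 ± 0.27, adjusted p = 0.000266), but stood higher at MCE2 (109 ± 9.47 TPM; 1.39 ± 0.27 against Control, adjusted p = 0.000277). Jag1, a Notch ligand, averaged 33.5 ± 4.77 TPM at Day8, against 12.8 ± 1.04 TPM in Control (1.31 ± 0.11, adjusted p = 1.44e-08). Nkd1 and Rnf43, feedback inhibitors that canonical signalling induces in many tissues, were listed at 0 in all 18 libraries. Znrf3 and Notum, on the same list and named after their values were seen, were not. Znrf3 averaged 1.89 to 2.77 TPM over the groups. Notum averaged 0.116 TPM in Control, 0.627 at MCE1 and 0.994 at MCE2, and was listed at 0 at Day4, Day6 and Day8.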

How the data were processed

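The authors deposited 1 table of TPM per gene for each of the 18 libraries; the submitters' processing notes name FastQC, cutadapt, HISAT2 and StringTie, without versions, and the mm9 build. The annotation, strand setting and any filter are not given in the sources used here. TPM keeps no depth, so the depth behind each value is unknown and the spread between replicates sets the precision. In Control replicate 1, 12 genes lay at another locus and were left out (0 members).

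Groups follow the sample titles. Genes that reached 1 TPM in 3 or more libraries (12695) were fitted on log2(TPM + 1) in limma 3.58.1 (R 4.3.3; a mean for each group, trend and robust set, 12 residual degrees of freedom), with 2-sided tests for 9 comparisons and Benjamini-Hochberg adjustment over all genes. The script was tested on simulated data. Errors of means are SDs (n = 3) and of fold changes SEs. Sums, shares and ratios were computed per library with no test. Promoters are RefSeq windows of GRCm38.p6, used for letters only. Python 3.11.15 and matplotlib 3.10.9 made tables and figures.

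Values per library are given for up to 4 members a role with the highest group mean among those called in at least 1 comparison. Of the 60 pathway genes and the 25 targets, up to 6 each are named by absolute fold change at Day8 (mean of 5 TPM or more in the higher group), and of each marker list up to 3 by level, beside markers listed at 0. The members and lists were chosen with earlier results of these data known. Alternatives were another pseudocount, no filter and a stricter one, median-ratio and quantile scaling, a replicate block, array weights, a fit of only the libraries compared, and leaving out each library, with 3 added after seeing the data: the fits without genes listed at 0 beside replicates at 5 TPM or more, without genes whose recorded position varied, and without Control replicate 1 in the steps between stages.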

Additional observations from a re-analysis of the deposited data

How the results depend on the processing

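Over the 25 members and 9 comparisons, 134 of 225 pairs were called in limma, and 105 kept the call under every alternative fit that held the gene. Another 29 lost it under at least 1, 24 uncalled pairs gained one, and none changed direction. Fzd3, Ror1, Ror2 and Dkk3 never reached 5 TPM, so the stricter filter of 5 TPM did not test them. Dkk3 was also absent from the fit without genes whose recorded position varied. The fit of only the libraries compared ended 11 calls. The count of members called stayed within 1.5 times its value under every alternative in 8 comparisons and the F test, and moved for Day8 against Day6. There 4 members were called, against 2 with a pseudocount of 0.1, 2 with no filter, 2 with array weights and 0 when only the 6 libraries compared were fitted (4 at an unadjusted p under 0.05). Leaving out 1 library each gave 1 to 4, with 1 without Day6 replicate 1 and 2 without Day6 replicate 3. The cause was not tested. The labels do not say whether the replicate numbers pair the samples. Over 45 pairs of same-numbered libraries the correlation of their deviations was -0.074 to 0.093, against -0.107 to 0.136 over 90 pairs with different numbers. These values show no strong shared deviation, and they cannot settle whether samples were paired. With the replicate block, 15 members were called at MCE1, 18 at MCE2, 18 at Day4, 19 at Day6 and 21 at Day8 against Control, 14 at MCE2 against MCE1, 17 at Day4 against MCE2, 9 at Day6 against Day4 and 4 at Day8 against Day6, with 3 calls lost and 4 gained. Depth is unknown, so the members listed near 0 set no limit on expression.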

Other observations

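Apcdd1, a membrane antagonist of Wnt signalling on both gene lists and named here after its values were seen, dipped and returned. It had 28.0, 24.8 and 22.9 TPM in Control, 6.13, 5.15 and 5.43 at MCE1, 4.43, 3.66 and 3.83 at MCE2, 10.9, 9.96 and 9.75 at Day4, 19.3, 18.8 and 16.7 at Day6, and 25.9, 28.3 and 24.8 at Day8. The MCE2 libraries were the lowest and the Day8 libraries overlapped Control. The limma log2 fold change against Control was -2.40 ± 0.10 (SE) at MCE2 (adjusted p = 6.19e-12) and 0.06 ± 0.10 at Day8 (adjusted p = 0.598). Lgr4, a receptor for R-spondins chosen in the same way, peaked at MCE2 with 125, 143 and 122 TPM, against 54.1, 55.4 and 64.8 TPM in Control, a log2 fold change of 1.15 ± 0.09 (adjusted p = 1.86e-08). At Day8 it had 52.6, 55.1 and 48.8 TPM and missed the threshold against Control (-0.15 ± 0.09, adjusted p = 0.155).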
